A study of Mus musculus with 12 samples.

Results

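The calls analysed here are the nucleosome positions of a 3.5 Mb window of mouse chromosome 8, which holds clusters of defensin genes and, between them, a stretch of pseudogenes and unnamed genes that includes 2610005L07Rik. Members were all calls of 6 deposited lists whose midpoint, 70 bp after the start, lay at chr8:19000001-22500000 (mm10). There were 7803 such calls out of 415758 in all lists. The window had been chosen by its number of calls in these same lists, so the density of calls in it is given as a description.

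The study mapped nucleosomes by MNase-seq in germ cells of adult male SV129 mice. Micrococcal nuclease (MNase) cuts the linker between nucleosomes, and the protected fragments are sequenced. A fraction titled meiotic spermatid and called meiotic in the protocol (M below) and a round spermatid fraction (RS) each received 0.5, 1 or 2 U of the enzyme, and the 6 combinations had 2 samples each. The animals were 8 to 12 weeks old, testes of 11 mice were pooled in each collection, fractions had a purity of at least 85% by microscopy and digestion took 7.5 min at 37 °C. The RS digests used 2 times the cell number of the M digests. All groups share the strain, and the labels name no genotype, transgene or drug. Expression was not measured, so the fractions could not be checked against marker genes. The title of M does not settle whether it held meiotic cells or spermatids. The authors made each list from both samples of a group, so there is no replicate list and no difference below was tested against replicate error. Intervals are 95% intervals for counting error alone, and they are too narrow because neighbouring calls overlap.

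Defensins are small cationic antimicrobial peptides. Alpha-defensins of the mouse are secreted by Paneth cells of the small intestine, and beta-defensins by epithelia, including that of the epididymis. Both families expanded by local gene duplication, and such loci hold near-identical copies in which short reads are hard to place. In male germ cells DNA is wrapped around histones through meiosis and the round spermatid stage, and most histones are later exchanged for protamines.

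The window carries repeated sequence at gene starts, which is shown first as a property of the window. Its part in the calls was not tested. Of 59 promoter entries of the window in a RefSeq table (GRCm38.p6, 56 genes, 300 bases each), 13 had the same bases as the promoter of another gene, against 1.58% of 32851 entries genome-wide. Such identity joined 4930467E23Rik, Gm15319 and Gm21119, and the pairs Defa21 and Defa22, Defa23 and Defa31, Defa2 and Defa20, Defa36 and Defa37, and Defa42 and Defa43. The promoter calls that follow have no share over promoters elsewhere in the genome beside them and are a description. Calls reached into the 250 bases before the start in 9 of the 59 entries. The Defa promoters of these pairs had no call there in any list, while 4930467E23Rik, Gm15319 and Gm21119 each had calls. The 3 sequences below are those of the dense stretch between the defensin clusters with calls there, 5′ to 3′ on the strand of the gene, with the bases under calls of the largest number of lists in capitals. That number is 1 list for 4930467E23Rik (chr8:19729326-19729575, plus strand), 4 lists for Gm40468 (chr8:20261200-20261449, minus strand) and 2 lists for Gm40467 (chr8:20501558-20501807, plus strand). The bases of 4930467E23Rik stand also for Gm15319 (chr8:20363203-20363452, minus strand) and Gm21119 (chr8:20614677-20614926, plus strand), but the capitals hold for 4930467E23Rik alone. The largest number was 2 lists over 89 bases in Gm15319 and 1 list over 232 bases in Gm21119. The starts of 4930467E23Rik and Gm21119 in this table lie inside the annotated spans of these genes.
4930467E23Rik: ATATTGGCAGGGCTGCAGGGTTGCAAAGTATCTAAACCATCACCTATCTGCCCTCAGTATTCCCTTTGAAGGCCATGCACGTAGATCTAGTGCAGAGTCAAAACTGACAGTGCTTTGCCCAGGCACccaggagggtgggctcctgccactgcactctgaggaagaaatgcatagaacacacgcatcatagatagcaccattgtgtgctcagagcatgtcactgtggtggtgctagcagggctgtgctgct
Gm40468: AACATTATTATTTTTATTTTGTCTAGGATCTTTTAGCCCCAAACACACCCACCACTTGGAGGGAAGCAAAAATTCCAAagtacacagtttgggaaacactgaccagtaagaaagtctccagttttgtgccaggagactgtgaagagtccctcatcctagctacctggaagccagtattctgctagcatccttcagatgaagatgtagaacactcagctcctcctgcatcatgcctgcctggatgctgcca
Gm40467: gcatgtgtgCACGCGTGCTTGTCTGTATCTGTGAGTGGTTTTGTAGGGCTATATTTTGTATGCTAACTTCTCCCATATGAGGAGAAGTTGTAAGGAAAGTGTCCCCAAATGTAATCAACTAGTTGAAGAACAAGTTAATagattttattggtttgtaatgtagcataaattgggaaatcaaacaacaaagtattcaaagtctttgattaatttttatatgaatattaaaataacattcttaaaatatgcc

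In the sequence shared by the 3 genes, 52.0% of the bases were G or C and 2 CG dinucleotides occurred, against a median of 6 over all promoters of this length. The lncRNA gene Gm40468 had 45.2% G or C and no CG, and the lncRNA gene Gm40467 had 32.0% and 2. At most 2 CG were present in 29.0% of all promoters and none in 7.87%. The letters TATAAA, searched on both strands, occurred 1 time in Gm40467 and in neither of the others, while 12.4% of all promoters held them. CCAAT occurred 1 time in 4930467E23Rik, 2 times in Gm40467 and 0 times in Gm40468, with 33.8% of all promoters holding it. The 250 bases of Gm40468 met 3 calls in M at 1 U, 1 in M at 2 U, 4 in RS at 0.5 U and 2 in RS at 1 U, of at most 8 reads, and the 78 bases farthest from the start lay under calls of all 4 of these lists. Reads here are the count that the deposited p-value of a call implies, and 6 reads was the lowest in every list.

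Few of the calls lay on defensin genes. By gene order the window has 5 segments, and 7377 of the 7803 calls (94.5%) fell in 1 of them, the interval between the proximal beta-defensins and Defb33 (chr8:19497776-20892666, 32 genes). This interval held 924, 1341 and 1408 calls at 0.5, 1 and 2 U of MNase in M, and 2004, 975 and 725 in RS. Per Mb, M had 662, 961 and 1009 calls there beside autosomal means of 16.4, 23.7 and 26.0. For RS the interval had 1437, 699 and 519.8 calls per Mb beside means of 73.1, 16.4 and 10.4. Every list was thus at least 19.6 times as dense there as over the autosomes. The proximal beta-defensin segment (chr8:19000001-19497775) held 63 calls over all lists, and its density lay between 0.387 and 1.44 times the autosomal mean. The distal beta-defensin segment (chr8:21750001-21948622) held 31 calls and the genes beyond it 71. The alpha-defensin segment (chr8:20892667-21750000) held 261 calls. It had 2 dense bins (more than 20 calls in any list) near its border with the interval, while 58 of its 86 bins of 10 kb had none in any list. In the window as a whole 157 of 350 bins (44.9%) were empty, close to the 41.4% of 240301 autosomal bins, and the longest empty run, chr8:21320001-21610000, spanned 290 kb among the alpha-defensin genes. The name defensin cluster therefore describes the flanks of the dense stretch and not its gene content.

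**Figure D1:**
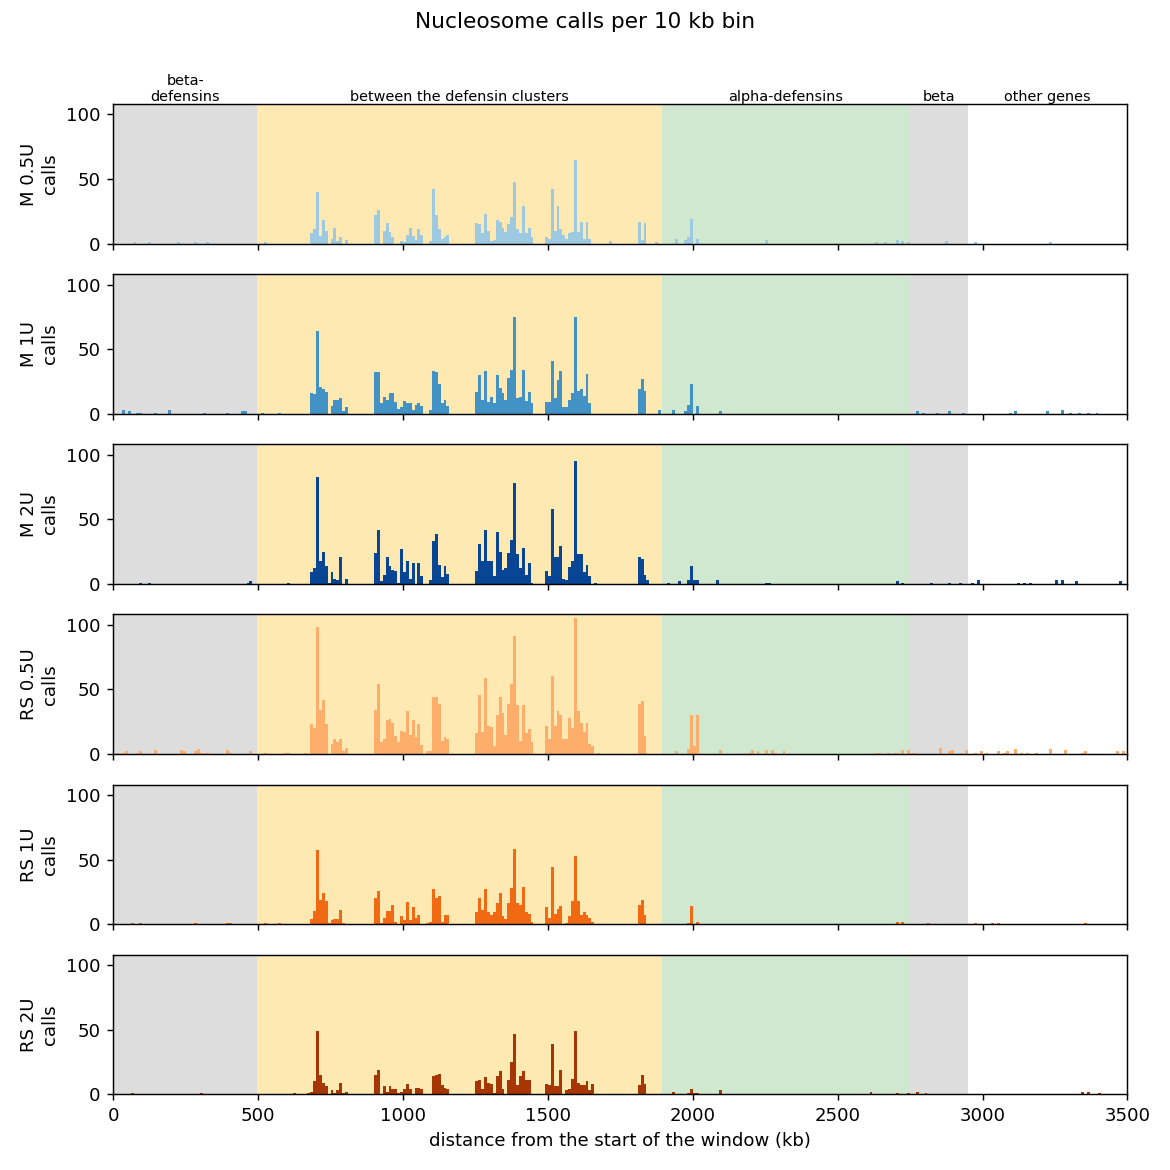
Calls per 10 kb bin (vertical axis, number of calls) against the distance from the start of the window (horizontal axis, kb), 1 panel for each list and the same scale in all. Shading marks the segments named above the top panel. Most calls stand in the interval between the defensin clusters, with up to 105 in a bin. On this scale the alpha-defensin segment shows few calls apart from its first part.

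Of the 62 genes with a Defa or Defb symbol, 10 had a call midpoint in the gene body in any list. Together they held 24 calls, 0.308% (0.197% to 0.457%) of the calls of the window, on 4.70% of its length. Most calls of the window lay in the dense interval, so this share does not compare defensin genes with the rest of the genome. Densities of the defensin segments relative to the autosomes are given above, and none lay below the mean in every list. No share of genes with calls is given for the rest of the genome, so 10 of 62 is a description. Among 40 alpha-defensin genes, 4 had a call. Defa40 had 1 call in M at 0.5 U, in M at 2 U and in RS at 0.5 U, Defa-ps8 had 3 calls in RS at 0.5 U alone, and the pseudogene Defa-ps13 had 1 in RS at 0.5 U and 1 in RS at 2 U. Among 22 beta-defensin genes, 6 had a call. Defb39 had 2 in M at 1 U and 1 each in RS at 1 and 2 U, Defb1, which encodes a beta-defensin of kidney and airway epithelia, had 2 in M at 1 U and 2 in RS at 2 U, and Defb14 had 3 in M at 1 U. Counts of 0 to 3 per list carry no comparison of the stages.

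Most calls on genes were on pseudogenes and unnamed genes of the interval. Annotated genes of any kind held 39.8% of the calls of the window (38.8% to 40.9%) on 30.8% of its length. The protein-coding gene 4930467E23Rik (chr8:19704311-19753603) had the most, with 66, 102 and 111 calls at 0.5, 1 and 2 U in M. In RS it had 165, 103 and 58. The transcribed pseudogene 2610005L07Rik (chr8:20385782-20424814) had 73, 83 and 103 for M beside 131, 84 and 61 for RS. In both genes 2 U gave more calls than 0.5 U in M and fewer in RS, as it did for the whole lists. The protein-coding gene 9530057J20Rik (chr8:19903378-19935330) held 381 calls over all lists, the transcribed pseudogene 6820431F20Rik (chr8:20268286-20297432) 304, Gm21119 226 and Gm15319 173. Per kb some short pseudogenes stood highest: Gm7807 (chr8:20381027-20381692) held 61.6 calls per kb over all lists, Gm21112 (chr8:20595597-20597313) 46.6 and Gm7760 30.5, against 13.7 in 2610005L07Rik, 12.3 in 4930467E23Rik and 0.146 in the defensin genes. Other short pseudogenes of the interval, such as Gm20797 and Gm20945, held 0. The value of Gm7760, which lies within 4930467E23Rik, rests on 20 calls.

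In and next to this interval the calls came in blocks separated by empty bins. Splitting the window at runs of 3 or more empty bins, a division made after the profile was seen, gave 5 blocks that hold a dense bin. They held 7565 calls (96.9%). Block 1 (chr8:19660001-19810000) spans 4930467E23Rik, block 2 (chr8:19900001-20160000) 9530057J20Rik and Gm20778, block 3 (chr8:20250001-20450000) 6820431F20Rik, Gm15319, Gm7807 and 2610005L07Rik, block 4 (chr8:20490001-20680000) Gm40467, Gm21112 and Gm21119, and block 5 (chr8:20810001-21020000) Gm20946 and Defb33. They held 13.8%, 23.0%, 30.2%, 23.3% and 6.65% of the calls of the window. Runs of 90 kb without a call in any list lay between blocks 1 and 2, between blocks 2 and 3, and before block 5. No genome sequence was used here, so the base content of these runs is not described.

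Dense bins numbered 44 in the window, from chr8:19680001 to 21020000, out of 238 on placed chromosomes, and held 6016 of its calls (77.1%). Calls of all 6 lists were present in 43 of the 44, and 5 passed 20 calls in each list. The density rested in part on the longest list: 13 of the 44 passed only in RS at 0.5 U, and without that list 31 bins passed and held 66.7% of the calls. Overlapping calls also counted separately, and when they were merged 3 bins passed, with 9.40% of the merged calls. Just outside the limit, 2 bins reached exactly 20 calls in their fullest list, and just inside 2 reached 21. At the edges of the window the 100 kb before its start held 19 calls over all lists and the first 100 kb inside held 19, while the last 100 kb inside held 7 and the next 100 kb 21.

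The fullest bin was chr8:20590001-20600000, which holds Gm21112, with 65, 75 and 95 calls for M and 105, 53 and 49 for RS. The second, chr8:20380001-20390000, holds Gm7807 and the first part of 2610005L07Rik and had 48, 75 and 78 calls for M and 91, 58 and 47 for RS. The next, chr8:19700001-19710000 in 4930467E23Rik, had 40, 64 and 83 for M and 98, 57 and 49 for RS. In each of the 3 the RS list of 0.5 U had the largest number. The RS list of 2 U had fewer calls than every M list in the bins of Gm21112 and Gm7807, and in 4930467E23Rik fewer than M at 1 and 2 U. Relative to list size the order was another: the bin of Gm21112 had 58.6 calls per 100000 in RS at 0.5 U and 181 in RS at 2 U, with up to 154 in M. The fourth bin, chr8:20510001-20520000 with the end of Gm40467, had 33.5 and 144 per 100000 in these RS lists and 68.2 to 99.6 in M. Of the other 6 of the 10 fullest bins, those starting at 20370001, 20100001 and 20110001 overlap no annotated gene, and those at 19910001, 20410001 and 20280001 lie in 9530057J20Rik, 2610005L07Rik and 6820431F20Rik.

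**Figure D2:**
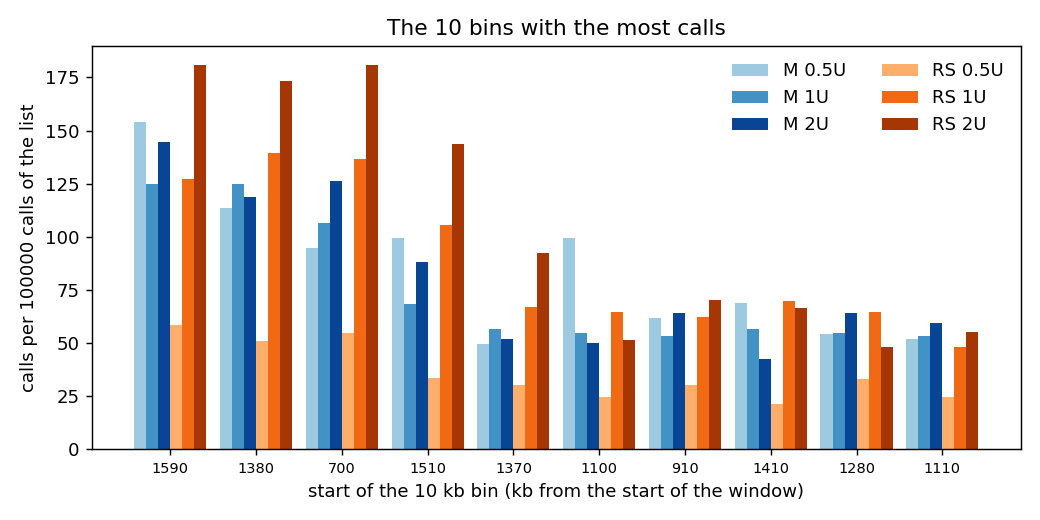
The 10 bins with the most calls, ordered by their mean over the 6 lists. Bars give calls per 100000 calls of the list for each stage and MNase amount, without replicates; RS at 0.5 U is the lowest bar in all 10 bins, while RS at 2 U is the highest in 6 of them.

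The share of a list that fell in the window lay between 2.24% and 2.77% in 5 of the 6 lists. It was 2.32% (2.18% to 2.47%), 2.36% (2.24% to 2.49%) and 2.24% (2.12% to 2.35%) in M at 0.5, 1 and 2 U, and 2.42% (2.27% to 2.57%) and 2.77% (2.58% to 2.97%) in RS at 1 and 2 U. In RS at 0.5 U it was 1.22% (1.17% to 1.27%), below the interval of every other list. The window is 2.77% of the span of chromosome 8 and held 21.4% (RS at 0.5 U) to 43.0% (RS at 2 U) of its calls. In number, the window had 979, 1420 and 1467 calls for M, and 2180, 1006 and 751 for RS. These numbers had the same order as the mean read number per position implied by the p-values of the list, namely 0.434, 0.484 and 0.507 for M, and 0.696, 0.472 and 0.409 for RS. The part of that mean in the differences between lists was not tested.

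**Figure D3:**
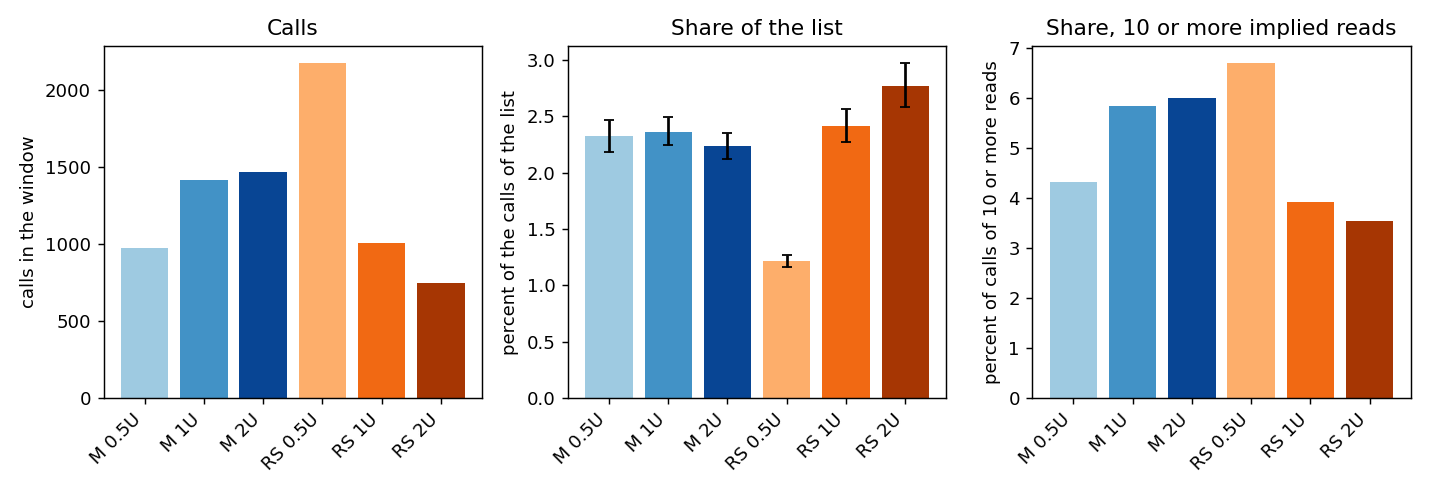
Left, number of calls in the window; middle, calls in the window as percent of all calls of the list, with 95% exact binomial intervals for counting error; right, calls of 10 or more implied reads in the window as percent of all such calls of the list. RS at 0.5 U has the most calls (2180), the smallest share of the list (1.22%) and the largest share of calls of 10 or more reads (6.70%).

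The stage comparison therefore turned with the amount of MNase. The log2 ratio of the share in RS over M was -0.93 (-1.04 to -0.82) at 0.5 U, 0.03 (-0.08 to 0.15) at 1 U and 0.31 (0.18 to 0.43) at 2 U. At equal MNase per cell it was 0.06 (1 U for RS, 0.5 U for M) and 0.23 (2 U for RS, 1 U for M). Among calls of 10 or more reads the signs were the opposite: 0.64 at 0.5 U, -0.57 at 1 U and -0.76 at 2 U. No direction between RS and M thus held at all amounts or all read minimums. Dense bins elsewhere in the genome had the same signs, with -1.01, 0.30 and 0.63, and calls outside dense bins the opposite ones, with 0.16, -0.07 and -0.17. Shares of a list add up to its whole, and most calls of each list lay outside dense bins. The opposite sign there thus follows largely by construction and is no separate result. In calls, RS at 0.5 U had 2.23 times those of M in the window and 2.10 times in the other dense bins, against 4.75 times outside dense bins.

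With more MNase the share of the whole window in M differed by no more than counting error, and that in RS was higher. From 0.5 to 2 U the log2 ratio was -0.05 (-0.17 to 0.06) for M and 1.19 (1.07 to 1.31) for RS, and -0.23 and 1.41 in the other dense bins. In M it was 0.03 (-0.10 to 0.16) in the dense bins of the window. Outside them the M share was lower at 2 U, at -0.37 (-0.62 to -0.12). For RS these parts had 1.17 and 1.24. Dense bins were set by the counts of these same lists, and 26 bins passed 20 calls in M at 2 U against 12 at 0.5 U. Bins full in 1 list move to the dense part, so the values of the 2 parts partly follow from the split and are no separate result. Within RS most of the change lay between 0.5 and 1 U, at 0.99 (0.88 to 1.10), with 0.20 (0.06 to 0.33) from 1 to 2 U. The 5 blocks had like values: the ratio of RS to M at 0.5 U was -0.81, -0.89, -0.99, -1.15 and -0.88 from block 1 to block 5, and all 5 intervals lay below 0. At 1 U all 5 intervals held 0, with values from -0.37 to 0.18, and at 2 U the values were 0.07 to 0.43, with the intervals of blocks 2 and 5 holding 0.

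Single bins were compared where 2 lists had at least 20 calls together, and counted past 1.5-fold in calls per list size. At 0.5 U, 38 of 55 bins of the window (69.1%) were higher in M, with 63.1% of all such bins of the genome, and 4 (7.27%) were higher in RS, with 9.09% of all. At 1 U, 7 of 46 (15.2%) were higher in M, with 13.9% of all, and 9 (19.6%) in RS, with 25.8% of all. At 2 U, 3 of 42 (7.14%) were higher in M, with 11.8% of all, and 15 (35.7%) in RS, with 45.7% of all. The shares in the window thus lay near or below those of all bins, apart from M at 0.5 U and 1 U, where they were slightly above. At all 3 amounts in the same direction, 0 of 37 bins of the window were higher in M and 0 in RS, with 0.962% of 208 bins of the genome in M and 0.962% in RS. When bins were scaled to the calls of the window in place of the list, 2 of the 37 were higher in M at all amounts, those starting at 20530001 and 20610001, the second of them in Gm21119, and 0 in RS. This scaling was chosen after values were seen. It has no share over all bins of the genome beside it, so these 2 bins are a description and show no stage difference.

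Calls of the window had more reads than calls outside dense bins and fewer than those of other dense bins. The sets are unlike: the window values cover all its calls, of which 74.1% to 80.9% per list lay in dense bins. Between 13.5% and 18.4% of the calls of a list in the window had 10 or more reads, against 29.0% to 31.4% in the other dense bins and 0.609% to 1.70% outside dense bins. Exactly 6 reads, the minimum, stood behind 34.2% to 39.7% of the calls of the window. The highest count was 31 reads, in M at 1 U, and the maximum of the other lists lay between 22 and 26. The window supplied between 3.53% (RS at 2 U) and 6.70% (RS at 0.5 U) of all calls of 10 or more reads of a list.

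Positions recurred from list to list. Of the 7803 calls, 80.5% had a midpoint of another list within 73 bp, compared with 90.6% in the other dense bins and 6.90% outside dense bins, and 16.8% had one in all 5 other lists. Here too the window value covers calls inside and outside its dense bins. The share in the window rose with reads: 68.0% at 6 reads, 79.0% at 7, 90.1% at 8 to 9 and 98.7% at 10 or more. Outside dense bins the same classes gave 4.95%, 8.02%, 19.5% and 83.2%. Where calls are this dense, midpoints come close to each other also where positions do not repeat, so the distances were set against farther ones. Pairs of calls of different lists were 4.64 times as frequent per bp at 0 to 20 bp as at 300 to under 1000 bp, compared with 2.70 times in the other dense bins and 11.0 times outside dense bins.

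**Figure D4:**
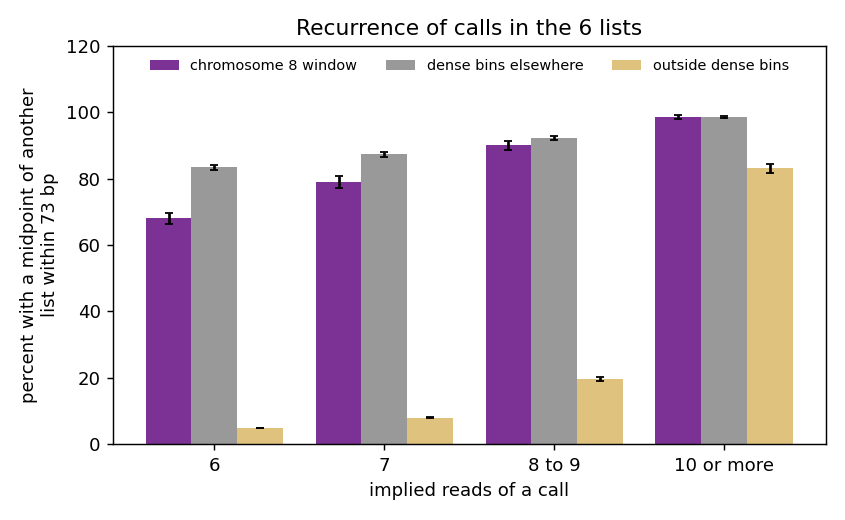
Percent of calls with a midpoint of another list within 73 bp, by implied reads of the call, for the window, dense bins elsewhere and calls outside dense bins. Bars are pooled over the 6 lists with 95% exact binomial intervals; the window lies between the other classes at 6 reads (68.0%) and beside the other dense bins at 10 or more (98.7%).

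The share of positions common to 2 lists of the window was compared within and between the stages, with no test. Over pairs of lists, the part of the shorter list found in the longer was 60.1% on average within a stage (6 pairs, 54.4% to 67.9%), 64.7% between the stages at the same amount (3 pairs, 58.3% to 68.3%) and 56.9% between the stages at other amounts (6 pairs, 43.5% to 64.5%). No pair of 1 stage has equal amounts, and the mean of such pairs was above that of the pairs between the stages at other amounts and below that at the same amount, with overlapping ranges. The lowest pair was M at 0.5 U with RS at 1 U and the highest M at 0.5 U with RS at 0.5 U. A longer list leaves more positions to match, so these shares also depend on the length of the longer list. Pairs with RS at 0.5 U, the list with 2180 calls, had 63.5% to 68.3%, and pairs of other lists 43.5% to 67.5%. The part of list length in the means was not tested.

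Joined where they overlapped, the calls formed 1179 stretches. Of these, 626 (53.1%) held calls of 1 list, 254 of them of RS at 0.5 U. Another 97 stretches (8.23%) held calls of all 6 lists, with 42.7% of the calls, and their median length was 530 bp. The stretch with the highest minimum over lists, chr8:20835287-20835661 outside annotated genes, reached 17, 21 and 16 reads at 0.5, 1 and 2 U in M, and 21, 20 and 18 in RS. A stretch of 770 bp in 2610005L07Rik (chr8:20410052-20410821) held 89 calls and reached 17, 18 and 18 reads in the M lists, beside 21, 22 and 14 in those of RS. The longest, 2163 bp over Gm7807 (chr8:20379754-20381916), held 164 calls, 22, 28 and 30 of them from M and 37, 25 and 22 from RS. Its highest reads were 12, 14 and 19 in M, and 21, 18 and 15 in RS. In each of these stretches the highest reads of the M and RS lists overlapped.

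Calls of exactly 3 lists stood in 113 of the 1179 stretches. In 4 of the 113 these were the 3 M lists and no RS list, and in 8 the 3 RS lists and no M list. No such share is given here for stretches elsewhere in the genome, so these counts are a description. The RS stretch with the most calls, chr8:20652982-20653361 outside annotated genes, had 6, 1 and 5 calls in RS at 0.5, 1 and 2 U, of at most 8 reads. A second one, in 4930467E23Rik (chr8:19737307-19737746), had 6, 1 and 1 calls in RS, of up to 12 reads. The M stretch with the most calls, in 9530057J20Rik (chr8:19915177-19915611), had 3, 1 and 3 calls, of at most 8 reads. Most of these counts were at or near the minimum of 6 reads, where 1 read decides whether a position is listed.

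The distance between midpoints within a list was taken as a measure of spacing. Between 120 and 250 bp its mode was 155 bp in the window, 165 bp in the other dense bins and 185 bp outside dense bins, in classes of 10 bp. The count at the mode was 1.19 times the mean of that range in the window, 1.06 times in the other dense bins and 1.15 times outside dense bins. The peak was thus shallow in each class, and least so in the window.

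Calls were also compared around the starts of the 3 genes with the same promoter sequence. Identity is given for 300 bases only, so the wider span used below is not shown to be the same sequence. The matches have no expected rate beside them and are a description. Within 2000 bp of the start, 4930467E23Rik had 8, 13 and 14 calls at 0.5, 1 and 2 U for M, beside 16, 14 and 7 for RS. Gm15319 had 8, 11 and 4 for M, beside 17, 7 and 2 for RS. Gm21119 had 7, 7 and 10 for M, beside 8, 0 and 7 for RS. The 3 genes thus differed most in RS at 1 U, with 14, 7 and 0 calls. Of the 72 calls at 4930467E23Rik, 22 (30.6%) had a call of the same list within 20 bp at the matching distance from the start of Gm15319, and 23 of 49 (46.9%) the other way. In the same list, matches with Gm21119 were fewer, with 4 of the 72 and 6 of the 49, and 3 and 7 of its own 39. With calls of any list allowed as the match, 50 of the 72 (69.4%) had one at Gm15319 and 23 (31.9%) at Gm21119. Of the 39 calls at Gm21119, 18 (46.2%) then had one at 4930467E23Rik and 26 (66.7%) at Gm15319. In RS at 0.5 U the same midpoints, 215 and 195 bp before the start, were called in 4930467E23Rik with 8 and 6 reads and in Gm15319 with 6 and 6. The calls of that list covered the same 126 of the 250 bases printed above in both genes, and Gm21119 had calls of 2 lists there over 232 bases. Its 232 bases include most of the 126, so the 3 copies were covered in part at the same letters. How reads that match several copies were placed is not stated, and its part in these calls was not tested.

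**Figure D5:**
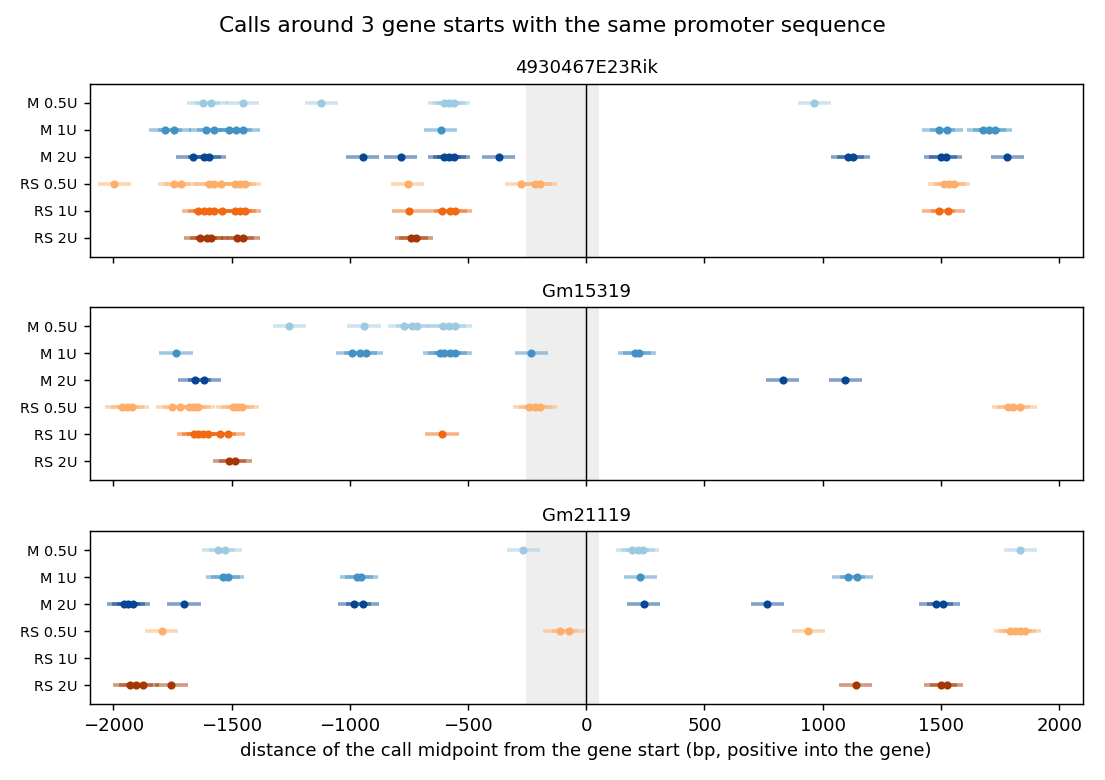
Calls within 2000 bp of the starts of 4930467E23Rik, Gm15319 and Gm21119, which share 300 promoter bases (grey band). Points are call midpoints and lines their 140 bp, by list; the horizontal axis is the distance from the start (bp) in the direction of the gene, and Gm21119 has 0 calls in RS at 1 U where the other two have 14 and 7.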

How the data were processed

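Reads were aligned by the authors with STAR 2.5.2a to GRCm38 (mm10), per the submitters' processing notes. The sources used here do not give the nucleosome caller, its threshold or the treatment of reads with several matches. Each deposited list holds 140 bp calls with a p-value, made by the authors from both samples of a group. The p-values matched Poisson upper tails (minimum 6 reads in every list), which gave implied reads per call. The number of sequenced reads is unknown. Call starts took only 2 of the 5 remainders on division by 5, so positions are resolved to about 5 bp, and calls of a list were at least 20 bp apart.

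Calls were counted in 10 kb bins and over RefSeq genes (GRCm38.p6) with Python 3.11.15, numpy 2.4.6, pandas 2.3.3 and scipy 1.17.1. Shares have Clopper-Pearson intervals and log2 ratios normal intervals of counts. Steps were tested on simulated data. Named were the 10 bins with most calls per 100000, genes overlapping them, 2610005L07Rik and defensin genes with calls, the 3 with most in each class by value. Other names, the blocks, the comparison of promoter copies and the scaling of bins to the window were chosen after values were seen. The members and lists were chosen with earlier results of these data known. No test between groups was possible, as each group is 1 list. Strict read minimums, merged calls, other bin sizes and another denominator were tried as alternatives.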

Additional observations from a re-analysis of the deposited data

Results flagged for a closer look

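The change of the window's share from 0.5 to 2 U of MNase had different signs in the stages, at -0.054 on the log2 scale for M and 1.19 for RS. This difference was not tested, as each stage has 1 list per amount. The interval of M includes 0, and with calls of more than 6 reads its value was 0.18, so the opposite signs do not hold under that minimum, while RS stayed higher in value at 1.00.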

How the results depend on the processing

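No paired analysis was possible because each list pools both replicates of a group, and for the same reason no replicate could be left out. The log2 ratio of RS over M at 0.5 U was -0.68 with calls of more than 6 reads, -1.22 with overlapping calls merged, -1.08 per calls outside dense bins, and 0.64, a reversal, with calls of at least 10 reads. At 1 U it was 0.22 with merged calls, -0.57 with at least 10 reads, 0.16 in the dense bins of the window and -0.41 outside them. At 2 U it was 0.13 with more than 6 reads, 0.57 merged, 0.47 per calls outside dense bins, 0.67 in the window without its dense bins, and -0.76, again a reversal, with at least 10 reads. The ratio of 2 U over 0.5 U was 0.18 (more than 6 reads) and -0.31 (merged) in M, and 1.00, 1.48 and 1.46 (more than 6 reads, merged, per calls outside dense bins) in RS. The share of positions found in another list was 69.8% within 20 bp, 66.8% with merged calls and, in an alternative chosen after seeing the data, 77.5% without RS at 0.5 U. The share of calls in dense bins was 78.9% with 5 kb bins of more than 10 calls, 9.40% with merged calls and 66.7% without RS at 0.5 U (also chosen after seeing the data). The share on defensin genes was 0.602% with 1000 bp added on each side and 0.123% with more than 6 reads. The cause of these changes was not tested, except that a higher read minimum or merging leaves fewer calls by construction. Dense bins were set by the counts of these same lists, so values inside and outside them partly follow from that choice. The other 11 of 37 alternative values moved by less than the counting interval. The presence of single calls at 6 reads depends on 1 read, which limits what can be said of single genes.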
